A study of Homo sapiens with 6 samples.

Results

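The transcripts described here are the rows of the deposited Huh7 table that have no counterpart in GENCODE release 29, matched by Ensembl transcript identifier with the version removed. They were 48155 of the 251062 transcript rows (19.2%), and the other 202907 rows were matched. Every one of the 48155 carried a transcript number above 650637, the highest in release 29, and no matched row did. They are called later transcripts below, and the matched rows release 29 transcripts. Their numbers ran from 650638 to 703420 and filled 91.2% of the 52783 numbers in that span.

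The labels name the cells Huh7, an established line derived from a human hepatocellular carcinoma, and all 6 libraries are labelled wild type. RNA of 3 libraries came from cells kept at 21% oxygen (normoxia, C1 to C3) and of 3 from cells kept at 1% oxygen (hypoxia, C4 to C6), both for 24 h, after depletion of ribosomal RNA. By its title, the series concerns ferroptosis in liver cancer and a long noncoding RNA that low oxygen induces. Its design allows 1 comparison, hypoxia against normoxia. Libraries held 37621426 to 40794783 expected counts. Replicates are labelled biological, with nothing said of separate cultures, and p-values therefore measure only the spread between these libraries.

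Of 20 genes fixed as hepatocyte markers, 16 were under 1 CPM in both groups as sums over release 29 transcripts, and 7 of them, among them AFP, APOA1 and TTR, had 0 counts. Summed levels of the 20 genes were 1861 to 2193 CPM in normoxia and 1544 to 1778 CPM in hypoxia, nearly all of it from the urea cycle enzyme CPS1. CPS1 was lower in hypoxia (1851 to 2182 and 1525 to 1758 CPM). TF was higher (7.25 to 8.74 and 10.5 to 12.8 CPM). So were HNF4A (1.13 to 1.44 and 5.81 to 6.89 CPM) and SERPINA1 (0 to 0.118 and 1.58 to 1.78 CPM). Of 10 genes that mark other cell types, 4 were under 1 CPM in both groups and 2, PTPRC and COL1A2, had 0 counts. Their summed level was 133 to 140.1 CPM in normoxia and 109.8 to 129 CPM in hypoxia, and its members went both ways. The macrophage marker CD68 was at 5.76 to 5.98 CPM in normoxia and 39.1 to 47.4 CPM in hypoxia. The bile duct keratin KRT7 was at 47.1 to 52.9 and 11.9 to 13.7 CPM. The duct keratin KRT19 was instead higher in hypoxia (0 to 0.191 and 0.25 to 0.551 CPM). The endothelial cadherin CDH5 was at 8.4 to 9.12 and 0.401 to 0.445 CPM. Endothelial PECAM1 was instead higher (1.74 to 2.25 and 4.12 to 4.89 CPM), as was PDGFRB (1.84 to 2.2 and 5.28 to 6.22 CPM). COL1A1, the highest of the 10, was at 67.5 to 68.7 and 48.3 to 56.7 CPM. That the cells are Huh7 is taken from the labels, and with most hepatocyte markers this low, cell identity was not tested. The part of these markers in the results below was not tested. A gene sum over release 29 transcripts may miss later transcripts of the same gene.

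A gene is usually transcribed into several RNA forms, which differ in start, splicing and end. Reference annotation adds such forms, and whole genes such as long noncoding RNAs, with each release, and each new form receives an identifier of its own. Low oxygen acts through the hypoxia-inducible factors, transcription factors that raise genes of glycolysis, angiogenesis and oxygen sensing, and it is also known to alter splicing and start site use. When forms of a gene share exons, the reads of the shared part are divided among them by a model. The level of a single form is therefore an estimate that can trade counts with another form. None of the tables used here paired a later transcript with a gene (0 of 48155), so the transcripts are described by level, length and number, and their genes, positions and sequences are not given.

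Later transcripts were longer and more often listed at 0 than release 29 transcripts. Their median length was 1620 bases (quartiles 985 and 2949), beside 840 bases (557 and 2031) for release 29 transcripts. The shortest had 19 bases and the longest 347561. Transcripts from 1000 to under 2000 bases made up 33.7% of later and 17.9% of release 29 transcripts, and those from 500 to under 1000 bases 20.4% and 38.7%. In all 6 libraries 24380 later transcripts (50.6%) were listed at 0, compared with 37.7% of release 29 transcripts. A mean level of 10 CPM or more, where CPM is the count as parts of 1e+06 of the scaled library, was reached by 1051 later transcripts (2.18%) and by 6.2% of release 29 transcripts. These shares describe the 2 sets of rows and carry no test.

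The share of all expected counts held by later transcripts overlapped between conditions, and the groups did not overlap on the 3 other scales tried. Their share of expected counts was 6.33%, 6.32% and 6.39% in normoxia C1 to C3 and 6.33%, 6.12% and 6.35% in hypoxia C4 to C6. The means of 6.34% ± 0.0388 and 6.26% ± 0.128 (SD, n = 3) differed by -0.0794 percentage points (exact two-sided permutation test, p = 0.6, where 0.1 is the smallest p this design allows). As a share of summed FPKM, counts per length and depth recomputed here, the transcripts held 3.36% to 3.57% in normoxia and 2.93% to 3.22% in hypoxia. On that scale every hypoxia library was below every normoxia library (exact permutation p = 0.1). Among rows outside the 100 most abundant of the table, of which 4 were later transcripts, the share was instead higher in hypoxia, at 7.64% to 7.87% against 7.47% to 7.55% (exact permutation p = 0.1). Without the 10 most abundant later transcripts the share was lower in hypoxia, at 5.23% to 5.42% against 5.44% to 5.53% (difference -0.125 percentage points, exact permutation p = 0.1). The direction of the total thus turned when the 100 most abundant rows, later transcripts among them, were left out.

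The reads were concentrated in few of them. The single most abundant later transcript held 5.66% of the summed level of the set, the 10 most abundant 14.2%, the 100 most abundant 33% and the 1000 most abundant 66.7%. For release 29 transcripts the same ranks held 3.78%, 13.5%, 26.7% and 48.2%. The test could be applied to 10997 later transcripts (22.8%) with enough counts, which held 98.2% of the counts of the set, and to 63530 release 29 transcripts (31.3%).

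The 10 most abundant later transcripts by CPM, which is not scaled by length, were chosen after their levels were seen and are named by length. Their differences between conditions ranged from small ones to a 4.08-fold rise. The 1778-base transcript stood at 3499, 3386 and 3317 CPM in normoxia and 3864, 3692 and 3799 CPM in hypoxia. All 3 hypoxia libraries were higher, by a log2 change of 0.15 ± 0.03 (SE, edgeR adjusted p = 0.0158). The 4880-base transcript was at 1169, 1138 and 1035 CPM in normoxia and at 926, 1010 and 909 CPM in hypoxia, a log2 change of -0.23 ± 0.06 (SE). The 2231-base transcript fell from 987, 963 and 911 CPM to 629, 635 and 597 CPM, 1.54-fold, with the groups well apart.

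The next in order, of 2767 bases, was at 650.3, 676 and 659 CPM in normoxia and 709.9, 693 and 696 CPM in hypoxia and did not pass (log2 change 0.08 ± 0.03, SE), though it did among rows at 1 CPM in 3 libraries (0.11). A transcript of 347561 bases, the longest row of the table, stood at 517, 561 and 579.7 CPM in normoxia and 725, 618 and 677 CPM in hypoxia (log2 change 0.29 ± 0.07, SE). Its level per length was low, since counts grow with length. A 14289-base transcript had a log2 change of 0.24 ± 0.07 (SE), with normoxia at 436 to 490.5 CPM and hypoxia at 515 to 592 CPM.

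Among these 10, the widest changes were of a 9231-base and a 2376-base transcript. The 9231-base transcript rose from 191, 176 and 183 CPM to 749, 798 and 702 CPM, which is 4.08-fold (log2 change 2.03 ± 0.06 SE, edgeR adjusted p = 1.30e-05). The 2376-base transcript rose from 261, 288 and 294 CPM to 678, 634 and 638 CPM, 2.31-fold. A 14278-base transcript rose from 306 to 331 CPM in normoxia to 459 to 514 CPM in hypoxia, with a log2 change of 0.62 ± 0.06 (SE). The 1842-base transcript differed more within the groups than between them, at 301, 469 and 591 CPM in normoxia and 306, 229 and 671 CPM in hypoxia (log2 change -0.17 ± 0.44, SE).

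The smallest of these changes passed in some settings and not in others. A fit with a library left out has 2 libraries in a group, and a call lost there does not tell fewer libraries from dependence on 1 of them. With library totals in place of TMM factors, the log2 change of the 1778-base transcript was 0.04, that of the 347561-base transcript 0.17 and that of the 14289-base transcript 0.13, and none passed. None of these 3 passed without the low-count filter or with limma on FPKM either, and the 4880-base transcript did not pass among rows at 1 CPM in 3 libraries (-0.20). The 1778-base transcript also lost its call without normoxia C2 (0.14) or C3 (0.12) and without hypoxia C4 (0.12) or C6 (0.14). The 4880-base transcript lost it without normoxia C1 (-0.21) or C2 (-0.23) and without hypoxia C4 (-0.23) or C6 (-0.22). The other pair lost it without any normoxia library and without hypoxia C4 or C6, at log2 changes from 0.21 to 0.31 (347561 bases) and from 0.17 to 0.27 (14289 bases).

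**Figure D1:**
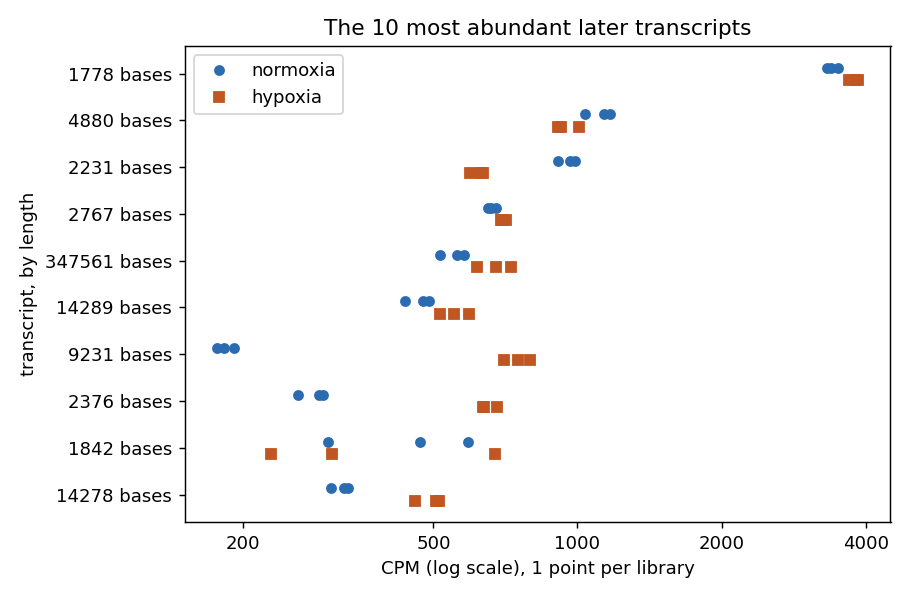
CPM of the 10 most abundant later transcripts on a log axis, with 1 point per library (circles normoxia, squares hypoxia) and transcripts named by length in bases. The groups lie far apart for the 9231-base transcript (176 to 191 against 702 to 798 CPM) and overlap for the 1842-base transcript.

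Across the set, 2567 of 10997 tested later transcripts passed the edgeR test at an adjusted p under 0.05 (23.3%), where 29.5% of all rows tested passed. Of the 10997 tested, 1437 were called higher in hypoxia (background 15.6% of all rows tested) and 1130 lower (background 14%). At least 2-fold, 1109 of the 10997 rose (background 10.9% of all rows tested) and 835 fell (background 8.01%). The groups did not overlap for 4687 later transcripts (42.6%) and for 50% of all rows. The later transcripts therefore did not pass more often than the table as a whole, in either direction.

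The median log2 change was 0.02 over tested later transcripts, 0.01 over release 29 transcripts and 0.01 over all rows. Scaled by library totals it was -0.10 in each of these sets, a shift of the whole table. Higher transcripts were the majority of those called with TMM (56%), and lower ones were with library totals (1261 higher and 1334 lower). Lower ones also led with limma on FPKM (higher 46.9% to 47.5%) and without hypoxia C4 (49.3%) or C6 (49%). Among release 29 transcripts 52.3% of the called were higher with TMM and 44.1% with library totals. Summed over the called higher transcripts, the level went from 14561 to 27726 CPM. Summed over the called lower ones it went from 17560 to 9255 CPM. These sums of what was called describe how much RNA the calls cover and are not a test.

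**Figure D2:**
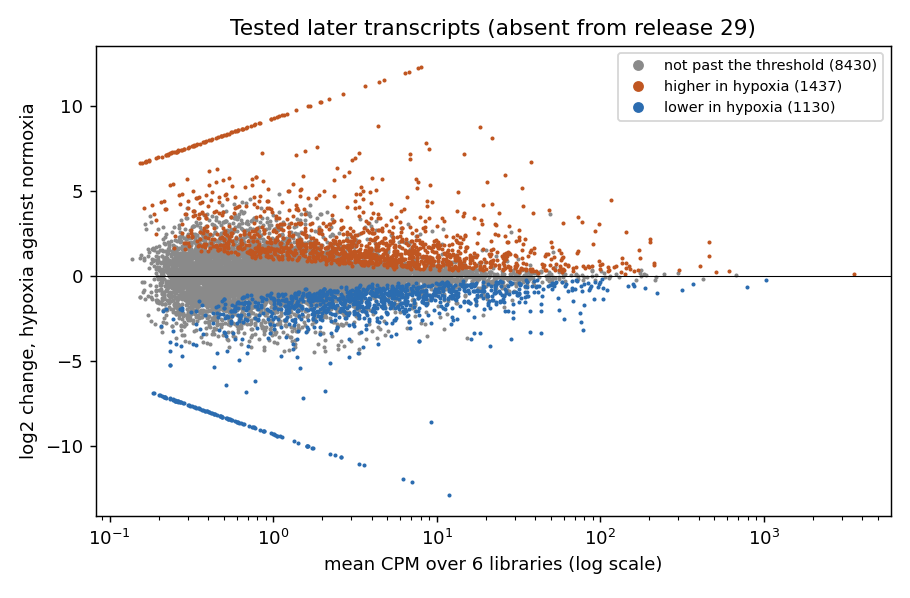
Log2 change in hypoxia against normoxia (vertical) against mean CPM on a log axis for the 10997 tested later transcripts, 1 point each, coloured by whether they passed the edgeR test at an adjusted p under 0.05. The straight upper and lower edges are called transcripts with 0 counts in each library of a group (91 higher, 108 lower), whose fitted change depends only on the level in the other group. The same count over all rows is not given.

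The share that passed grew with level. Of 4593 later transcripts at 0.1 to 1 CPM, 555 passed (12.1%, beside 12% of all rows at that level). At 1 to 10 CPM, 1428 of 5354 passed (26.7%, background 30.8%), and at 10 CPM or more 584 of 1050 (55.6%, background 62.3%). For release 29 transcripts the shares were 12%, 31.6% and 62.9%. At 10 CPM or more, 54.6% of the called later transcripts were higher, compared with 45.1% of the called release 29 transcripts. With library totals these became 46.3% and 37.3%, so the majority direction of the later transcripts turned with the scaling while the gap between the sets kept its sign. Whether the sets differ was not tested.

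**Figure D3:**
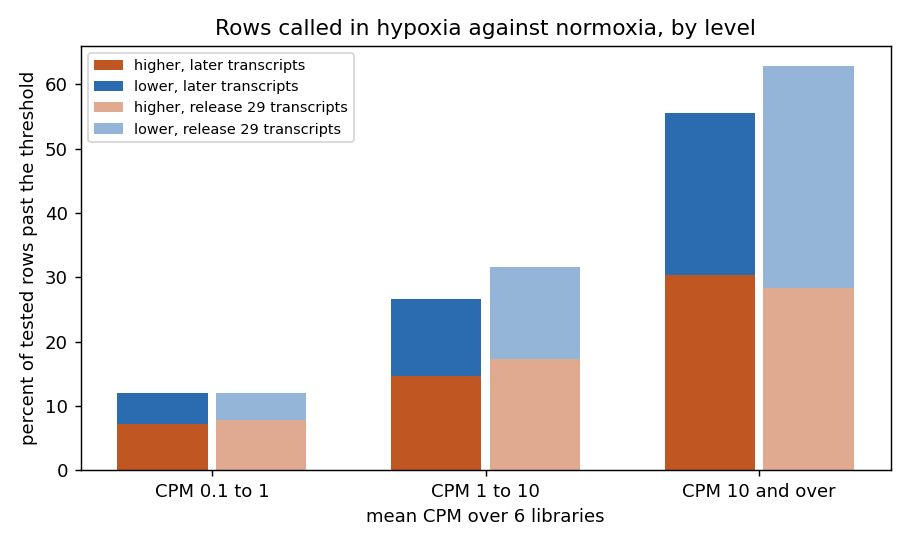
Percent of tested transcripts past the edgeR threshold in 3 classes of mean CPM, each bar split into higher and lower in hypoxia, for later and for release 29 transcripts. The bars are level at 0.1 to 1 CPM (12.1% and 12%) and lower for later transcripts at 10 CPM or more (55.6% and 62.9%).

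Libraries of the same group varied more in their estimates of later transcripts. At 10 CPM or more, the median coefficient of variation over 3 libraries was 10.2% in normoxia and 10.6% in hypoxia for later transcripts, and 7.24% and 8% for release 29 transcripts. At 1 to 10 CPM it was 22.9% and 25%, compared with 19.5% and 20.7%. At 0.1 to 1 CPM it was 50.7% and 54.8%, compared with 40.3% and 41.6%. The order was the same in each of these 3 classes and both groups, as a description without a test.

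Dropouts within a group showed the same order. Of 6276 later transcripts with a normoxia mean of 1 CPM or more, 389 (6.2%) had a normoxia library whose count rounded to 0. In hypoxia it was 472 of 6359 (7.42%). For release 29 transcripts the shares were 2.31% and 2.82%. A pair of libraries in a group differed by 16.2 to 18.5 times the counting variance over later transcripts (chi-square over its degrees of freedom), and by 11.1 to 14.9 times over all rows. Pairs from different groups differed by 47 to 54.1 times over later transcripts and by 92.9 to 108.8 times over all rows. For the same relative change this ratio grows with the counts. Tested later transcripts had a median level of 1.33 CPM, beside 1.68 CPM over all rows tested, and the part of level was not tested.

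**Figure D4:**
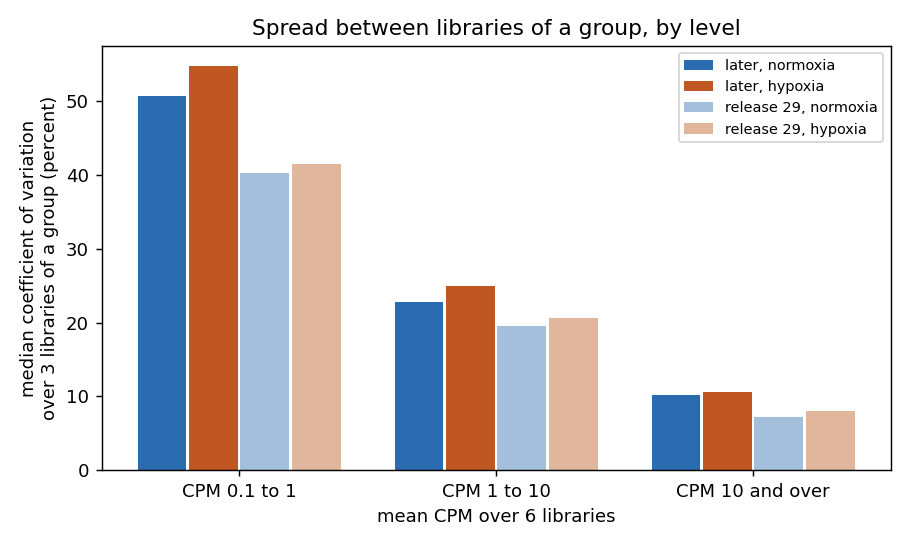
Median coefficient of variation over the 3 libraries of a group, in percent, by class of mean CPM, for later and release 29 transcripts in normoxia and hypoxia. Each later bar is above its release 29 counterpart, by the widest margin at 0.1 to 1 CPM (50.7% against 40.3% in normoxia).

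Some later transcripts were found in 1 condition only. At 1 CPM or more in each library of a group and 0 counts in each library of the other, 22 were found in hypoxia (0.0457% of the 48155) and 26 in normoxia (0.054%). For release 29 transcripts these shares were 0.0473% (96) and 0.0281% (57). The 4 named by identifier are the 2 with the largest fitted rise and the 2 with the largest fitted fall among 2244 transcripts that passed, had no overlap between groups and reached a mean of 1 CPM in a group. All 4 had a group at 0, as had 92 of the 2244, and the same count over all rows is not given. A count of 0 allows up to 3 counts per library, which is 0.0708 to 0.0737 CPM in normoxia and 0.0788 to 0.0834 CPM in hypoxia, for counting error only.

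ENST00000697110, of 8225 bases, had 0 counts in the 3 normoxia libraries and 16.6, 13.4 and 16.1 CPM in hypoxia. Against the mean limit of 3 counts per library, its hypoxia mean was at least 213-fold higher (edgeR adjusted p = 0.000119). This fold and those that follow use group means and leave out the spread between libraries, so a single library can fall below them. ENST00000683341, of 6311 bases, had 0 counts in normoxia and 24.5, 13.1 and 10.6 CPM in hypoxia. It was at least 222-fold higher by the mean, with a spread of 46.2% between the hypoxia libraries. ENST00000680281, of 3248 bases, was at 20.1, 28.6 and 23.1 CPM in normoxia and at 0 in each hypoxia library, at least 296-fold lower by the mean. ENST00000677723, of 4834 bases, was at 9.23, 7.13 and 26 CPM in normoxia and rounded to 0 in each hypoxia library, at least 175-fold lower by the mean. The first and the third of these were even within the expressing group, and the other two varied by more than 2-fold among its libraries. Whether other forms of the same genes moved the opposite way was not tested, since the genes are not paired.

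Among transcripts with counts in all 6 libraries and a mean of 10 CPM or more, the 4 largest rises and the 4 largest falls were set apart after their values were seen. A 616-base transcript rose from 0.236, 0.191 and 0.172 CPM to 27, 30.1 and 30.9 CPM, 144-fold (log2 change 7.17 ± 0.15, SE). A 620-base transcript rose from 0.874, 0.646 and 0.565 CPM to 76, 74 and 74.1 CPM, 107-fold. Longer transcripts of 25672 and 11392 bases rose 63.4-fold and 47.1-fold, to 51.4 ± 2.27 and 39.7 ± 3.78 CPM (SD, n = 3). All 4 were below 1.1 CPM in each normoxia library and above 26 CPM in each hypoxia library.

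The falls were smaller than the rises. A 7104-base transcript fell from 40.6, 39.2 and 40.8 CPM to 2.57, 2.11 and 2.28 CPM, 17.3-fold (log2 change -4.11 ± 0.10, SE). A 5519-base transcript fell from 29.5, 30.8 and 32.9 CPM to 3.91, 2.41 and 2.67 CPM, 10.4-fold. The groups were far apart for both, and the hypoxia libraries of the latter varied by 26.8% (coefficient of variation). A 7785-base transcript fell from 59, 29.2 and 70.6 CPM to 1.68, 4.81 and 5.59 CPM, 13.1-fold. A 1828-base transcript fell from 18.3, 39.9 and 32.7 CPM to 0.289, 1.63 and 5.2 CPM, and lost its call without normoxia C2 (log2 change -3.44) or C3 (-3.63) or hypoxia C5 (-3.48).

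Of 66 later transcripts at a mean of 100 CPM or more, 33 were higher, 14 lower and 19 not called. The called share was 71.2%, beside 75.7% of all rows tested at that level (41% higher, 34.6% lower). At least 2-fold, 9 rose (13.6%, background 15.9%) and 1 fell (1.52%, background 9.1%). An 8730-base transcript rose from 9.56, 10.6 and 9.61 CPM to 226.8, 225.6 and 215.9 CPM, 22.4-fold (log2 change 4.49 ± 0.06, SE). A 7056-base transcript rose 6.09-fold to 247 ± 10.8 CPM, a 9635-base transcript 4.63-fold to 331 ± 8.49 CPM and an 1853-base transcript 4.09-fold to 325 ± 43.3 CPM (SD, n = 3). The only 2-fold fall was of a 4125-base transcript, from 138, 151 and 158 CPM to 56, 48.5 and 71.5 CPM. Transcripts of 1303, 1072 and 1784 bases fell 1.99-fold, 1.79-fold and 1.77-fold. These were chosen after their values were seen, as the widest changes at that level.

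Direction varied with length. Of 801 tested later transcripts from 500 to under 1000 bases, 143 rose and 56 fell (24.8% called, background 21%), and the median log2 change was 0.31. Of 2562 from 1000 to under 2000 bases, 356 rose and 214 fell (22.2% called, background 29.2%; median 0.12). Of 5622 from 2000 to under 5000 bases, 672 rose and 585 fell (22.4% called, background 33.2%; median -0.02). Of 1927 of 5000 bases and over, 246 rose and 266 fell (26.6% called, background 39.5%; median -0.11). With library totals the 4 medians were 0.20, -0.0004, -0.14 and -0.22, so the sign changed at a shorter length and the order stayed.

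Release 29 transcripts had the same order of medians over these classes, at 0.12, -0.02, -0.05 and -0.10. At 200 to under 500 bases the median of later transcripts was 0.16, under that of their next class, so the order did not extend there. For release 29 transcripts of that length it was 0.32, above their next class. With library totals these 2 medians were 0.04 and 0.20. The median level rose with length as well, from 0.65 CPM at 500 to under 1000 bases to 3.06 CPM at 5000 bases and over in the later transcripts, and its part in the order was not tested. In the shortest classes few were tested. Of 84 later transcripts from 200 to under 500 bases, 19 rose and 9 fell (33.3% called, background 22%), or 18 and 14 with library totals. Of 400 later transcripts under 200 bases only 1 was tested, and it was called higher. Of all rows tested at that length, 55 of 109 were called in either direction (50.5%), 53 of them higher. The tested later transcript has 195 bases and was at 0.0236, 0 and 0 CPM in normoxia and 1.08, 2.35 and 1.7 CPM in hypoxia.

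**Figure D5:**
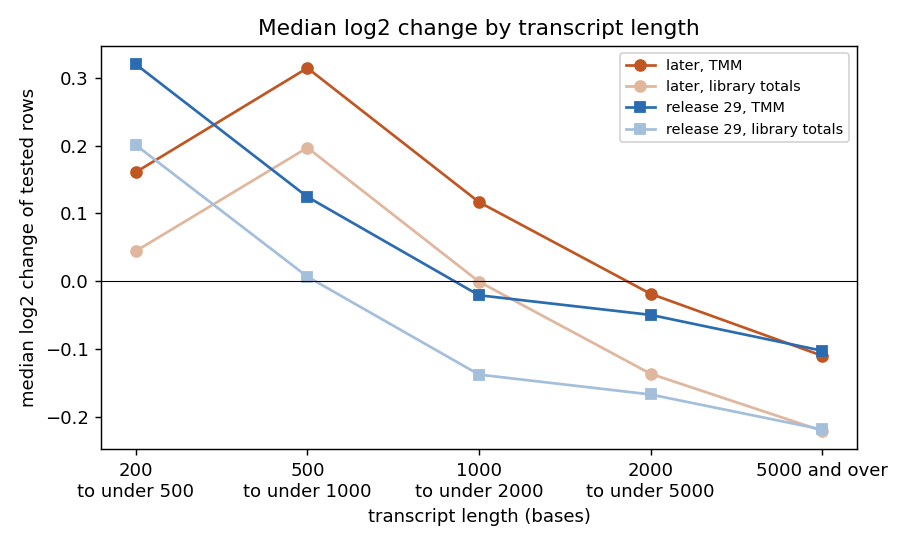
Median log2 change in hypoxia against normoxia of tested transcripts by length class in bases, for later and release 29 transcripts, with TMM scaling and with library totals. From 500 bases upward each line falls, from 0.31 to -0.11 for later transcripts with TMM, and library totals move every line down.

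Transcripts of different numbers, which are given out in order as annotation grows, differed in length, level and direction. In blocks of 5000 numbers, the share tested was 10.4% to 11.1% in the 3 blocks from 655000 to 669999 and 36.6% and 37.5% in the 2 blocks from 675000 to 684999. Median lengths were 1311 to 1316 bases in the former and 2550 and 2958 bases in the latter. In the block from 660000 to 664999, 107 of 511 tested rose and 48 fell (30.3% called, beside 29.5% of all rows), and the median log2 change was 0.22. In the block from 675000 to 679999, 171 of 1801 tested rose and 209 fell (21.1% called; median -0.14), and from 695000 to 699999, 152 of 1545 rose and 189 fell (22.1% called). The first 2 of these blocks had the highest and the lowest median of all blocks and were set out after their values were seen. Whether blocks differ was not tested. With library totals the first 2 of these medians were 0.11 and -0.26.

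Summed levels showed where the RNA of the set lay, and their direction depended on the scaling. In TMM-scaled CPM, every hypoxia library was above every normoxia library in 9 of 11 blocks and below in 0. As a share of all expected counts, it was above in 2 blocks, those starting at 655000 and 680000, and below in 4. The block from 675000 to 679999 held 13067 to 13596 CPM in normoxia and 12852 to 13823 CPM in hypoxia, and the groups overlapped. The block from 680000 to 684999 held 12020 to 12437 CPM in normoxia and 14535 to 14714 CPM in hypoxia. The block from 655000 to 659999 held 1838 to 1893 CPM and 2278 to 2324 CPM. The blocks were formed by number alone, their sums carry no test, and transcripts of a block can belong to the same gene.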

How the data were processed

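Per the submitters' processing notes, the authors used cutadapt, HISAT2 and RSEM with GRCh38 (hg38). Not given in the sources used here are versions, the annotation release and strand use in counting. The deposited expected counts are RSEM estimates per transcript row, which need not be whole. The 6 deposited FPKM columns were not used: a column named only by its group was taken for 1 measure, the expected counts, and FPKM was recomputed from these and the deposited length, which is not the effective length. The authors' header calls the length geneLength, here taken as transcript length in bases. Column names gave the condition, and their C numbers matched no replicate number in the labels.

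Rows were matched to GENCODE release 29 (primary assembly). Rows with identical length and values under different identifiers were each kept and counted. Expected counts were rounded to whole numbers. All rows were fitted together per transcript with edgeR 4.0.16 (limma 3.58.1, R 4.3.3), using filterByExpr, TMM factors and the two-sided quasi-likelihood test, with Benjamini-Hochberg adjustment over the 74527 rows tested and a threshold of 0.05. The standard error (SE) is the log2 change divided by the square root of F. CPM uses TMM-scaled library sizes. Single shares were compared by exact permutation. The edgeR step was run on simulated counts, and the limma and DESeq2 alternatives were not. Those counts were drawn independently per row, with known changes only in well-counted rows. The simulation thus did not cover reads divided among forms or changes in rows of low counts.

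The transcripts, lists and rules were chosen with earlier results of these data known. The rule for named transcripts took 2 risen and 2 fallen with the largest log2 change among those past the threshold, without overlap between groups and with a mean of 1 CPM or more in a group. Others are named by length only. Alternatives were DESeq2 1.42.0, other scalings and filters, limma on recomputed FPKM (chosen after the table was seen, in place of the deposited FPKM), and leaving out each library. Each library was counted as 1 replicate, and no pair of libraries agreed within counting noise, which does not show that they came from separate cultures.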

Additional observations from a re-analysis of the deposited data

How the results depend on the processing

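No paired analysis was possible because the columns of the table carry none of the labels' replicate numbers. All later transcripts are numbered above release 29, so restricting by number changed nothing. Called later transcripts numbered 1893 to 3657 over the alternatives (2567 as reported), and no transcript called in an alternative and in the reported fit changed direction. The lowest count, without normoxia C2, was 15.5% of those tested, beside 19.8% of all rows. The highest, with DESeq2, was 33.3%, beside 40.4% of all rows. In every alternative the called share was below that over all rows. DESeq2 called 1741 lower. Rises of 2-fold or more numbered 582 and 347, with limma on log2(FPKM + 0.5) and log2(FPKM + 1), and falls 314 with the latter, since a larger pseudocount shrinks changes of low transcripts. The median log2 change was -0.0065 with DESeq2, -0.098 with library totals, and -0.043, -0.084 and -0.027 with limma at pseudocounts of 0.5, 0.1 and 1. Leaving out a library gave medians from -0.037 to 0.041, below 0 without each hypoxia library (C4 -0.017, C5 -0.0047, C6 -0.037). The cause was not tested. The difference in the share of counts was -0.387 percentage points in FPKM and 0.261 outside the 100 most abundant rows, and ran from -0.121 to -0.0056 when a library was left out. Without any low-count filter 2034 were called of 23611 tested (8.61%, beside 11.9% of all rows). The uncalled 2767-base transcript had a log2 change of -0.036 with library totals and with each limma fit. The uncalled 14261-base transcript was at -0.010 with library totals and from -0.129 to 0.270 when a library was left out, and the uncalled 1842-base transcript from -0.770 to 0.096. The 4 identified transcripts kept direction and call under every alternative run, with log2 changes down to 1.48 and -1.88 in limma. They were chosen from these data with a group at 0, so their direction could not turn.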

Other observations

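Estimates that differed widely between libraries of a group were seen among abundant later transcripts too. At a mean of 100 CPM or more, the widest within a group were the 1842-base transcript described above, a 14261-base transcript and an 1868-base transcript, chosen for that spread. The 14261-base transcript was at 159.6, 260.6 and 293 CPM in normoxia and at 209.6, 306 and 251 CPM in hypoxia. The groups overlapped (log2 change 0.10 ± 0.25, SE). The 1868-base transcript was at 120.3, 190.2 and 155 CPM in normoxia and at 209, 189 and 207 CPM in hypoxia (log2 change 0.38 ± 0.16, SE). It did not pass in the edgeR test and passed without normoxia C2, at a log2 change of 0.54.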
